A study of Mus musculus with 4 samples.

Results

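The genes described here are 40 cell cycle and mitosis genes, out of 24441 genes in an RNA-seq table of BLM-treated mouse skin. They were taken as a list of named genes, chosen with earlier results of these data known. All 40 were found in the table by symbol. They comprise 14 genes of the G1/S transition and DNA replication, called the replication genes below, and 26 genes of mitosis. The series holds 4 libraries, 2 of GSDMD KO and 2 of WT skin, and asked how the skin of mice without gasdermin D (GSDMD), the pore-forming executor of pyroptosis, differs after BLM. All mice were female C57BL/6 with a label age of 8 weeks, and all received subcutaneous bleomycin (BLM), an agent that breaks DNA and is used to model scleroderma, every other day for 28 days. No skin without BLM is among these libraries, so every value is a level in treated skin. Per the study's methods, the KO line was made with Cas9 mRNA and guide RNA injected into fertilized C57BL/6 eggs, so the deletion is not limited to a cell type, and the RNA is that of whole skin. Values are FPKM (fragments per kilobase of transcript, set to a common depth), a level scaled to gene length and library depth.

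Dividing cells copy their DNA in S phase and separate the copies in mitosis. E2F1 and the cyclin E proteins open S phase, the MCM proteins form the helicase that unwinds DNA, and PCNA clamps the polymerase to it. Cyclin B with CDK1 drives entry into mitosis, the kinetochore ties chromosomes to the spindle, and the anaphase promoting complex then releases the sister chromatids. In skin, most division takes place in the basal layer of the epidermis and in the growing hair follicle, and little in muscle or resting fat. In bulk RNA, fewer cells of a type and less RNA per cell cannot be told apart.

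In the KO libraries these genes stood higher than in the WT libraries nearly without exception, with a larger median fold among the mitosis genes than among the replication genes. Of the 40 genes, 39 had both KO values above both WT values, against 35.3% of all tested genes, and the exception was Ccne2. The median fold of the KO mean over the WT mean was 2.37 over the 40 genes, 1.68 over the replication genes and 2.80 over the mitosis genes, and 1.10 over all tested genes. No gene of the list passed an adjusted p under 0.05 in limma (0 of 39 tested, and 0% of all 13027 genes tested). A log2 fold change above 1 was seen in 17 of the 39, against 7.18% of all genes tested. At an unadjusted p under 0.05 with the same fold limit, 17 were higher in the KO group, against 6.16% of all genes tested, and 0 were lower, against 4.14%. Basal keratinocyte keratins were also higher in both KO libraries, and they are set beside these results further on.

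**Figure D1:**
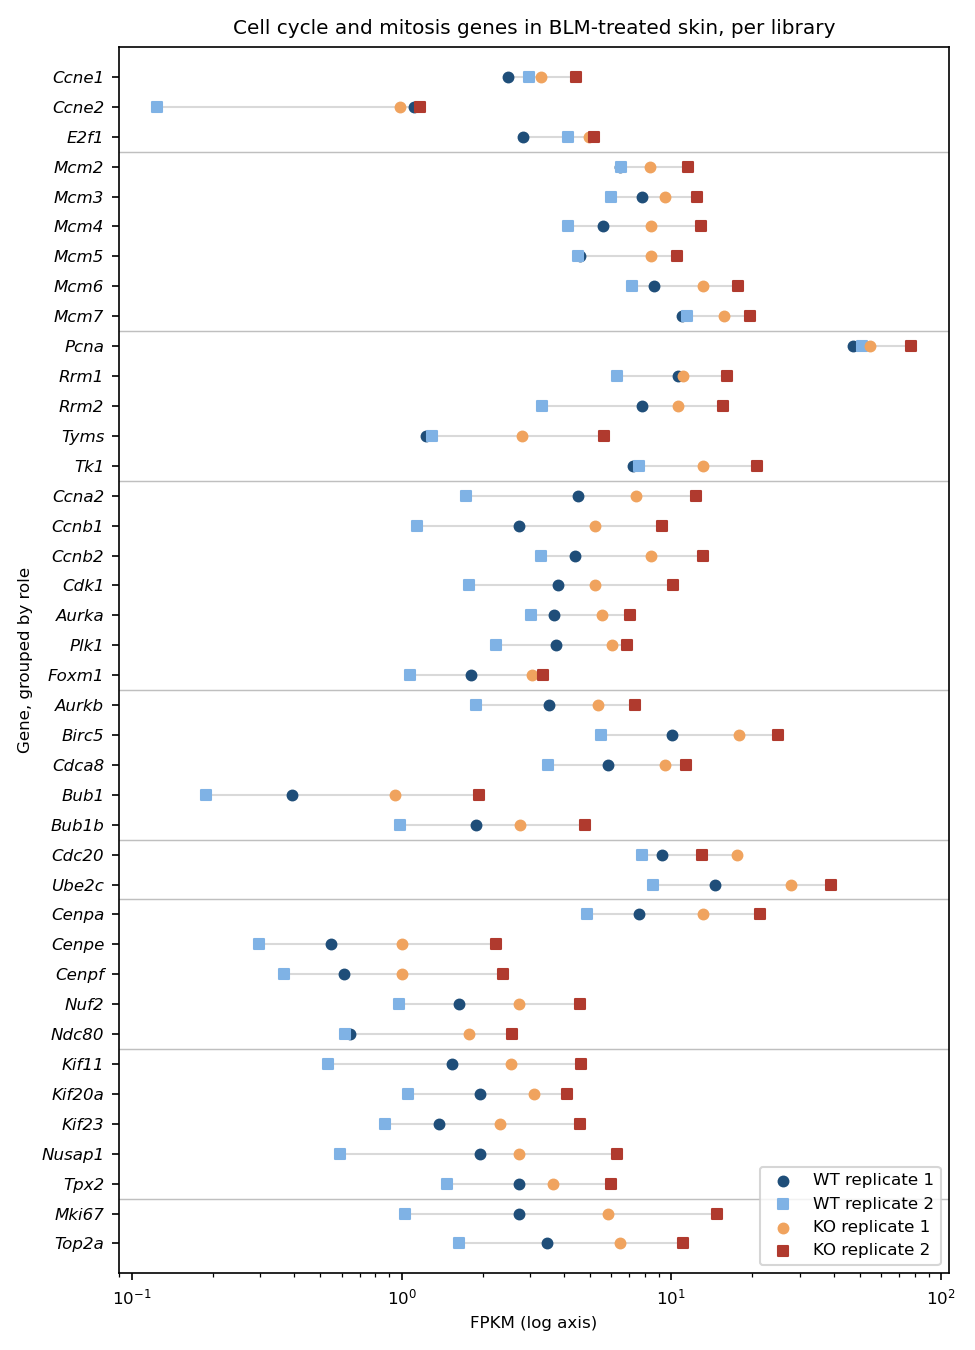
FPKM of each of the 40 genes (rows, grouped by role) in each of the 4 libraries on a log axis; grey lines join the lowest and the highest value. For 39 genes both KO points lie to the right of both WT points, and for Ccne2 the groups overlap.

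The deleted gene was lower in both KO libraries. Summed macrophage markers were lower there too, and their part in this difference was not tested. Gsdmd had 14.0 and 18.2 FPKM in WT skin and 3.53 and 2.26 FPKM in KO skin, a log2 fold change of -2.14 (standard error, SE, 0.29, limma adjusted p = 0.248). The FPKM totals lay between 448544 and 462251 per library. From the steps between low values, 1 FPKM on a 1 kb transcript was estimated to stand for about 12.8 to 17.4 fragments, depending on the library, which puts a median of 188 fragments behind a value of a cell cycle gene. The lowest was about 5.35 fragments, for Ccne2 in WT replicate 2, and 6 values rested on under 30. KO replicate 2 stood apart from the other libraries: its summed levels of macrophage, fibroblast, endothelial and adipocyte markers were the lowest of the 4, and 4 of 40 Y-linked genes were above 0 in it, with 1.78 FPKM in sum, against 0 in the other libraries of these mice labelled female.

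Promoters of both groups are shown first, because the groups are set apart below by their levels. RefSeq windows (GRCm38.p6) from 250 bases before to 50 after the start of a gene were at hand for 33 of the 40 genes, in 34 windows. They were searched on both strands for 3 motifs that are textbook elements of cell cycle promoters. The CHR (TTTGAA) is bound by the DREAM complex, CCAAT by NF-Y, and the E2F letters used were TTCGCGC or TTGGCGC. The genes printed are the 4 of each group with the highest mean FPKM that have a window, with matches in capitals. For the replication genes they are Pcna, Mcm7 (the more upstream of its 2 windows), Tk1 and Mcm6.
Pcna, chr2:132253131-132253430, minus strand: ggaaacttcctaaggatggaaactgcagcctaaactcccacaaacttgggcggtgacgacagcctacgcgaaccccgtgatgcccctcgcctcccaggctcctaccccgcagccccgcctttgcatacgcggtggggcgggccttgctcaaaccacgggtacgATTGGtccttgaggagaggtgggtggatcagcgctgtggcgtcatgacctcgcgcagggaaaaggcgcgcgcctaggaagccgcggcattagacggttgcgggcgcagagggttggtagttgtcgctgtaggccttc
Mcm7, chr5:138171834-138172133, minus strand: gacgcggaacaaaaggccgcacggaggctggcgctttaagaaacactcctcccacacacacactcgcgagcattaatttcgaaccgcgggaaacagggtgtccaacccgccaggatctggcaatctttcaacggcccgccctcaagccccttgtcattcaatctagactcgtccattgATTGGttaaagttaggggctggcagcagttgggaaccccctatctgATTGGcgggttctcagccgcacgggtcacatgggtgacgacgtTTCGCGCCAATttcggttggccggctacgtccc
Tk1, chr11:117825965-117826264, minus strand: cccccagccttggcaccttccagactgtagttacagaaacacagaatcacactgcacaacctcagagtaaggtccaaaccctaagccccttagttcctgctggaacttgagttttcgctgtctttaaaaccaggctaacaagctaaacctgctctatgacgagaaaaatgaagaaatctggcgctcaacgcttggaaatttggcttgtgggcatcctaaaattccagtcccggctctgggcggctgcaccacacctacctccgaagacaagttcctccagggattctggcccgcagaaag
Mcm6, chr1:128359656-128359955, minus strand: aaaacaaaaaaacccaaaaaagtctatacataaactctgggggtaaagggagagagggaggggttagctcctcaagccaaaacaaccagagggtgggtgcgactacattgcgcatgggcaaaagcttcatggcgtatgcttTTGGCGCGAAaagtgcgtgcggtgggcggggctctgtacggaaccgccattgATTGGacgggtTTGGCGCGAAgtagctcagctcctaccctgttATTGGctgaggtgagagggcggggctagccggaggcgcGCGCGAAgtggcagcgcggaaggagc

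For the mitosis genes they are Ube2c, Birc5, Cdc20 and Cenpa.
Ube2c, chr2:164769679-164769978, plus strand: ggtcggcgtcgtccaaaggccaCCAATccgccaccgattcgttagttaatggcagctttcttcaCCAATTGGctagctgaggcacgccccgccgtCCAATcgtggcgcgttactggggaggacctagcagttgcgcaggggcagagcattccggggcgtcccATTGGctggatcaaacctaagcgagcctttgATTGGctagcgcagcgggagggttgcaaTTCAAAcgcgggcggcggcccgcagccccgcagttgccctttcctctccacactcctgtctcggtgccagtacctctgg
Birc5, chr11:117848987-117849286, plus strand: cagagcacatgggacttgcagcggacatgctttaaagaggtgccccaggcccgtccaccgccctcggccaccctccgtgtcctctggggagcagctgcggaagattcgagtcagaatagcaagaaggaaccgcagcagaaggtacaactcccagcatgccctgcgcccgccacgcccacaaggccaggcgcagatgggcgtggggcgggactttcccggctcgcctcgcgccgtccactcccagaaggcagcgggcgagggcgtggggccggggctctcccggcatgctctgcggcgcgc
Cdc20, chr4:118437294-118437593, minus strand: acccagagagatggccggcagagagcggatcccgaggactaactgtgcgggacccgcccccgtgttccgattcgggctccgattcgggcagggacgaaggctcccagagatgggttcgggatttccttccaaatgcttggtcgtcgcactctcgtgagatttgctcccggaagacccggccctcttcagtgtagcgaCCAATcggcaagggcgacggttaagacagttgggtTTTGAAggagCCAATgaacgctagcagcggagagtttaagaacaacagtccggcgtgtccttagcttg
Cenpa, chr5:30666636-30666935, plus strand: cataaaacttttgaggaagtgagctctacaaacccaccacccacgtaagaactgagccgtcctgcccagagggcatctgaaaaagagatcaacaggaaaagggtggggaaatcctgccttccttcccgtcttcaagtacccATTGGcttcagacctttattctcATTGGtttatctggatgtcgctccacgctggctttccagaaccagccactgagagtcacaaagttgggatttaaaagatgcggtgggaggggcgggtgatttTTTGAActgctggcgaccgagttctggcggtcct

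Some capitals belong to several matches: in Mcm7 the last run holds the E2F letters on both strands and a CCAAT, in Mcm6 both longer runs hold E2F letters on both strands, and in Ube2c 1 run holds CCAAT on both strands. Windows of Tk1 and Birc5 held none of the 3. Over all windows, the CHR letters stood in 15 of 21 windows of mitosis genes (71.4%), in 1 of 13 of replication genes (7.69%) and in 17.9% of all 32851 promoter windows. CCAAT was in 17 of the 21 (81.0%), in 9 of the 13 (69.2%) and in 37.4% of all windows. The E2F letters were in 3 of the 21 (14.3%), in 4 of the 13 (30.8%) and in 3.89% of all windows. All 3 motifs were found for 2 genes, Cdk1 and Mki67, and none for 7. A match of letters is a description and not a bound site, and these shares carry no test.

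Among the replication genes, the genes of the G1/S transition had the lowest median log2 fold change of the role groups, 0.43. Ccne1, encoding cyclin E1, had 2.48 and 2.98 FPKM in WT skin and 3.28 and 4.42 FPKM in KO skin. E2f1, the transcription factor of S phase genes, had 2.82 and 4.13 FPKM in WT skin and 4.94 and 5.19 FPKM in KO skin. Both genes thus had non-overlapping groups that lay close together, with log2 fold changes of 0.37 (SE 0.26) and 0.45 (SE 0.27). Ccne2, encoding cyclin E2 (chromosome 4, 11118498 to 11131926, mm9), had 1.11 and 0.124 FPKM in WT skin and 0.990 and 1.18 FPKM in KO skin. Its groups overlapped, WT replicate 2 being the low library, and without that library its log2 fold change was -0.023 in place of 0.43. Adjusted p by limma ran from 0.406 to 0.537 for these 3 genes.

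All 6 genes of the MCM2-7 helicase had both KO values above both WT values (35.3% of all genes tested). Mcm5 had 4.58 and 4.51 FPKM in WT skin and 8.42 and 10.5 FPKM in KO skin, so the WT values nearly coincided and the KO mean was 2.08-fold higher. Its log2 fold change was 0.91 (SE 0.25, limma adjusted p = 0.248). Mcm6 had 8.63 and 7.15 FPKM in WT skin and 13.1 and 17.6 FPKM in KO skin, and Mcm4 had 5.59 and 4.14 against 8.44 and 12.9 FPKM. Mcm2, Mcm3 and Mcm7 were closer to WT, with folds of 1.54 to 1.60 in their means. Mcm7 (chromosome 5, 138605817 to 138613090, mm9) had 10.9 and 11.4 FPKM in WT skin and 15.7 and 19.6 FPKM in KO skin, the highest level per length of the 6. Over the helicase genes the median log2 fold change was 0.74 and adjusted p by limma ran from 0.248 to 0.349. Folds of the means thus ran from 1.54 for Mcm2 to 2.19 for Mcm4 within 1 complex, a spread that was not tested.

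Pcna, the sliding clamp (chromosome 2, 132075022 to 132078916, mm9), had the highest level of the 40 genes and the smallest fold of the means, 1.35. It had 47.1 and 51.0 FPKM in WT skin and 54.6 and 77.7 FPKM in KO skin, and the log2 fold change was 0.40 (SE 0.27, limma adjusted p = 0.452). KO replicate 1 was thus barely above WT replicate 2. The genes of nucleotide synthesis differed more. Tyms, thymidylate synthase, had 1.23 and 1.30 FPKM in WT skin and 2.79 and 5.61 FPKM in KO skin, the largest fold of the replication genes (3.32 in the means). Tk1, thymidine kinase, had 7.24 and 7.56 FPKM in WT skin and 13.1 and 20.9 FPKM in KO skin. In both genes the WT libraries were nearly equal and the KO libraries lay apart. For Rrm2, the regulated subunit of ribonucleotide reductase, the values were 7.80 and 3.33 FPKM in WT skin and 10.6 and 15.5 FPKM in KO skin. Its partner subunit Rrm1 had 10.6 and 6.28 against 11.0 and 16.1 FPKM, so that WT replicate 1 and KO replicate 1 hardly differed. Log2 fold changes were 1.14 for Tyms, 1.06 for Tk1, 1.16 for Rrm2 and 0.64 for Rrm1, with standard errors of 0.30 to 0.42. Tyms, Tk1 and Rrm2 are the 3 replication genes among the 17 past the unadjusted rule.

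All 26 mitosis genes had both KO values above both WT values (35.3% of all tested genes), and in all 26 WT replicate 2 was the lowest library (42% of all tested genes). The genes of mitotic entry are the cyclins A2, B1 and B2 with their kinase CDK1, the kinases Aurora A and PLK1, and FOXM1, the factor that turns on G2/M genes. Ccnb1 (chromosome 13, 101548694 to 101556441, mm9) had 2.73 and 1.14 FPKM in WT skin and 5.22 and 9.24 FPKM in KO skin, a log2 fold change of 1.497 (SE 0.41, limma adjusted p = 0.248). Ccna2 had 4.49 and 1.73 FPKM in WT skin and 7.40 and 12.4 FPKM in KO skin. Cdk1 had 3.81 and 1.78 FPKM in WT skin and 5.20 and 10.1 FPKM in KO skin. In these 3 genes the WT libraries differed from each other by more than 2-fold and the KO libraries by 1.67-fold to 1.95-fold. Ccnb2 had 4.40 and 3.29 against 8.41 and 13.1 FPKM, with a log2 fold change of 1.26 (SE 0.31) and a smaller spread in WT. Aurka, Plk1 and Foxm1 had smaller differences, with log2 fold changes of 0.74 to 0.92 and folds of 1.87 to 2.21 in the means. Adjusted p by limma ran from 0.248 to 0.278 over the 7 genes.

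Aurora B (Aurkb), survivin (Birc5) and borealin (Cdca8) belong to the chromosomal passenger complex, which corrects faulty attachments, and BUB1 and BUBR1 (Bub1b) to the spindle checkpoint. Birc5 had 10.1 and 5.49 FPKM in WT skin and 17.8 and 24.9 FPKM in KO skin, a log2 fold change of 1.38 (SE 0.36). Aurkb had 3.51 and 1.89 against 5.36 and 7.32 FPKM, and Cdca8 had 5.84 and 3.50 against 9.44 and 11.3 FPKM. The 3 subunits lay in the same order in every library, Birc5 above Cdca8 above Aurkb per length. Bub1b had 1.89 and 0.991 FPKM in WT skin and 2.76 and 4.78 FPKM in KO skin. Bub1 (chromosome 2, 127625936 to 127657595, mm9) was the one gene not tested, since it reached 1 FPKM only in KO replicate 2. Its values were 0.394 and 0.188 FPKM in WT skin and 0.943 and 1.94 FPKM in KO skin, with about 9.25 fragments behind the lowest. Both checkpoint genes thus ran in the same order of libraries as the passenger genes.

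Ube2c and Cdc20 act with the anaphase promoting complex, the former as its ubiquitin-conjugating enzyme and the latter as its activator. Ube2c (chromosome 2, 164595429 to 164598402, mm9) was the most abundant mitosis gene per length. It had 14.5 and 8.52 FPKM in WT skin and 27.8 and 39.1 FPKM in KO skin, a log2 fold change of 1.49 (SE 0.35, limma adjusted p = 0.248), the smallest unadjusted p of the 40 genes. Annotated exons of Ube2c overlap those of Tnnc2, a troponin gene of fast skeletal muscle, on the other strand. The log2 fold change of Tnnc2 was -0.41 (SE 0.27). The annotated Ube2c gene ends at 164604322, past the deposited end, and where the overlap lies was not examined. Cdc20 had 9.26 and 7.78 FPKM in WT skin and 17.5 and 13.0 FPKM in KO skin. It was the only one of the 40 genes whose highest value was in KO replicate 1. The other 39 were highest in KO replicate 2, as were 41.6% of all tested genes.

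Over the centromere and kinetochore genes log2 fold changes had a median of 0.95, and 4 of the 5 stood under 5 FPKM in every library. Cenpa, encoding the histone H3 variant of centromeres, had 7.57 and 4.87 FPKM in WT skin and 13.1 and 21.3 FPKM in KO skin, a log2 fold change of 1.32 (SE 0.35). Ndc80 and Nuf2 encode partner subunits of the complex that grips microtubules. Ndc80 had 0.643 and 0.620 FPKM in WT skin and 1.77 and 2.57 FPKM in KO skin. Its WT spread was the narrowest of the mitosis genes, but these WT values rest on about 24.6 and 19.6 estimated fragments. Nuf2 had 1.63 and 0.977 against 2.74 and 4.57 FPKM. The large kinetochore proteins CENP-E and CENP-F had transcripts under 1 FPKM in WT: Cenpe had 0.548 and 0.297 FPKM there and 1.00 and 2.24 FPKM in KO skin, and Cenpf had 0.610 and 0.366 against 1.01 and 2.38 FPKM. Cenpe, Cenpf and Ndc80 entered the test through the KO libraries alone, so a difference was built into their passing the filter, while 30 of the 40 genes had at least 1 FPKM in both WT libraries.

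Spindle motors and spindle assembly factors showed the order KO replicate 2, KO replicate 1, WT replicate 1, WT replicate 2 in 5 of 5 genes (21.6% of all genes tested). Kif11, the kinesin that pushes spindle poles apart, had 1.53 and 0.533 FPKM in WT skin and 2.54 and 4.64 FPKM in KO skin, a log2 fold change of 1.18 (SE 0.39). Nusap1, a microtubule-bundling protein, had 1.96 and 0.589 FPKM in WT skin and 2.72 and 6.27 FPKM in KO skin. Its WT values lay 3.33-fold apart, the widest WT spread after Ccne2. Tpx2, the activator of Aurora A, had 2.73 and 1.48 against 3.63 and 6.00 FPKM. Kif20a and Kif23, kinesins of cytokinesis, had means 2.39-fold and 3.08-fold those of WT. Adjusted p by limma for the 5 genes ran from 0.261 to 0.290.

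The genes of chromosome structure were Mki67 and Top2a. Mki67 encodes Ki-67, the chromosome-coating protein used as a stain for cycling cells (chromosome 7, 142881471 to 142908062, mm9). It had 2.72 and 1.03 FPKM in WT skin and 5.80 and 14.8 FPKM in KO skin. The mean was 10.3 ± 6.34 FPKM in KO and 1.87 ± 1.20 FPKM in WT skin (SD, n = 2 libraries each), 5.49-fold higher and the largest fold of the 40 genes. Its log2 fold change was 1.92 (SE 0.52, limma adjusted p = 0.248). KO replicate 2 was 2.54-fold above KO replicate 1, and leaving out the former gave a log2 fold change of 1.31, leaving out the latter 2.52. Top2a, the topoisomerase that untangles sister chromatids (chromosome 11, 98854261 to 98885503, mm9), had 3.47 and 1.64 FPKM in WT skin and 6.43 and 11.0 FPKM in KO skin. The log2 fold change was 1.46 (SE 0.40, limma adjusted p = 0.248).

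**Figure D2:**
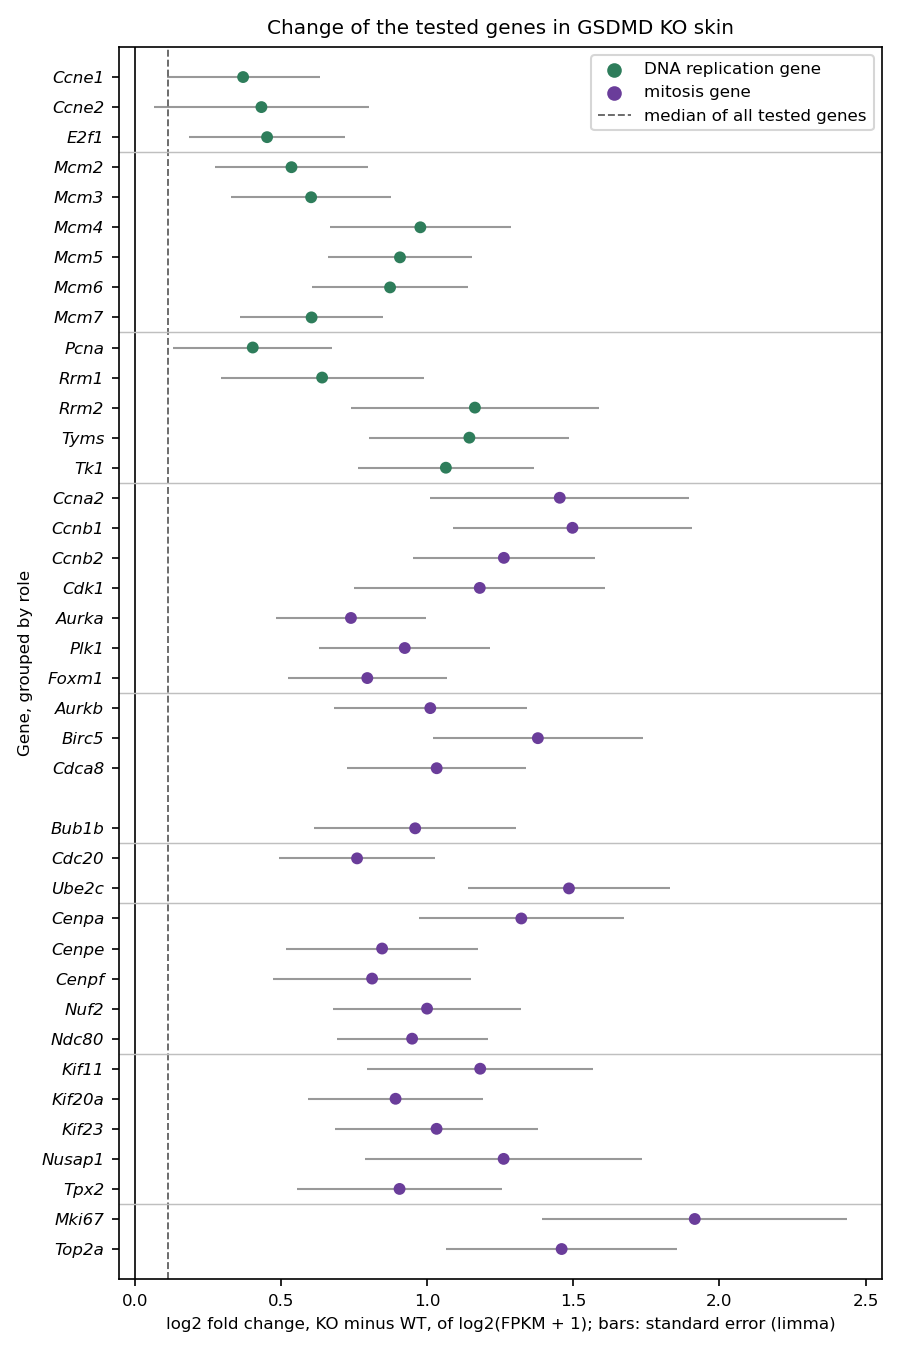
Log2 fold change (KO minus WT, of log2(FPKM + 1)) of the 39 tested genes with standard errors from limma, replication genes in green and mitosis genes in purple. All lie above 0 and above the dashed median of all tested genes, 0.11, from 0.37 for Ccne1 to 1.92 for Mki67.

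Over the 39 tested genes the log2 fold change was above 0 in 39, against 58.6% of all genes tested, and the median was 0.96, against 0.11 over all genes tested. The medians were 0.62 over the 14 replication genes and 1.03 over the 25 tested mitosis genes. Of the 17 past the unadjusted rule, 14 are mitosis genes. With the fold limit set aside, 30 of 39 had an unadjusted p under 0.05 and were higher in KO, against 10.9% of all genes tested. Adjusted p by limma ran from 0.248 to 0.537. These counts moved with single libraries: without KO replicate 1, limma called 19 of the genes higher at an adjusted p under 0.05, against 6.59% of all genes tested, and 28 passed the unadjusted rule, against 10.8%. Without KO replicate 2 it was passed by 6, against 5.63% of all genes, and without WT replicate 2 by 1, against 2.04%. An exact permutation test of a single gene could not go below 0.333 (two-sided) with 2 libraries a group.

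The libraries within a group differed in these genes as well. Summed over the 40 genes, the levels were 221.2 and 173.4 FPKM in WT skin and 333.4 and 480.0 FPKM in KO skin. The replication genes summed to 124.4 and 116.4 FPKM in WT skin and 164.8 and 231.1 FPKM in KO skin. For the mitosis genes the sums were 96.8 and 56.9 FPKM in WT skin and 168.6 and 248.8 FPKM in KO skin. Between the WT libraries, the replication genes went either way, 7 being lowest in replicate 1 and 7 in replicate 2 (median fold 1.01 of replicate 1 over replicate 2), while all 26 mitosis genes were higher in replicate 1 (median fold 1.84). The order KO replicate 2, KO replicate 1, WT replicate 1, WT replicate 2 held in 25 of 26 mitosis genes and 6 of 14 replication genes, against 21.6% of all genes tested. A difference among libraries that shared a genotype was therefore common to the mitosis genes.

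The rest of the cell cycle machinery was read from longer lists, for which the shares over all genes tested are again 58.6% with a log2 fold change above 0, 6.16% past the unadjusted rule and 35.3% with both KO values above both WT values. Of 55 other mitosis genes, 49 were tested and 49 had log2 fold changes above 0, with a median of 0.98 and 21 past the unadjusted rule. Of 37 other replication genes, 35 were tested and 34 had log2 fold changes above 0, with a median of 0.72 and 7 past the rule. Of those tested, 11 mitosis genes (5 of the 21) and 9 replication genes (2 of the 7) reached 1 FPKM in KO libraries alone, so a difference was built into their passing the filter. None of these passed an adjusted p under 0.05 in limma (0 genes). Among the most abundant of them, the groups overlapped in some genes: Pttg1 (securin) had 89.3 and 50.01 FPKM in WT skin and 72.9 and 63.1 FPKM in KO skin, and Rpa1, which coats single-stranded DNA, had 28.2 and 19.8 against 24.4 and 21.6 FPKM. Cks1b, a CDK subunit, had 20.6 and 22.1 FPKM in WT skin and 34.2 and 59.0 FPKM in KO skin. Psrc1, a spindle protein, had 8.66 and 6.73 against 16.2 and 41.7 FPKM. Rfc2 of the clamp loader had 18.8 and 23.5 against 25.0 and 25.2 FPKM, and Gins4 of the replicative helicase had 13.5 and 11.7 against 12.2 and 20.8 FPKM. The wider lists thus held genes that overlapped between groups beside many that did not: 50 of the 55 and 32 of the 37 had both KO values above both WT values.

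Genes upstream of S phase were read from lists of their own. Of 8 G1 cyclins, kinases and MYC genes, 7 were tested, 6 had log2 fold changes above 0, and the median was 0.61, with both KO values above both WT values in 7 of the 8 (35.3% of all genes tested). Cdk4, the kinase of D-type cyclins, had 60.5 and 46.8 FPKM in WT skin and 76.1 and 87.8 FPKM in KO skin. Its partner Ccnd3 ran the other way, with 45.2 and 46.6 against 42.0 and 30.1 FPKM, and Ccnd1 had 23.0 and 18.5 against 28.9 and 23.1 FPKM. Of 13 inhibitors of the cycle, 7 had log2 fold changes above 0 (58.6% of all genes tested) and 6 below, with a median of 0.06. Cdkn1a (p21), the most abundant, had 312.4 and 251.9 FPKM in WT skin and 232.0 and 218.2 FPKM in KO skin, a log2 fold change of -0.32 (SE 0.25). Cdkn2c had 23.1 and 52.3 against 34.1 and 23.6 FPKM, and Btg1 had 31.3 and 23.6 against 38.7 and 38.5 FPKM. The inhibitors thus showed no common direction. The 2 inhibitors lower past the unadjusted rule (4.14% of all genes tested), named after their values were seen, were Cdkn1c (p57), with 28.2 and 12.3 against 9.33 and 4.06 FPKM, and Cdkn2a (p16 and p19ARF), with 2.17 and 2.76 against 0.621 and 0.120 FPKM. Cdkn2a entered the test through the WT libraries alone, so that its difference was built in likewise. Rbl1 (p107), also named after its values were seen and itself an S phase gene, was the 1 inhibitor higher past that rule (6.16% of all genes tested), with 1.89 and 1.09 against 2.89 and 5.81 FPKM.

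Markers of the cell types in skin also differed between the libraries. The 8 basal keratinocyte genes, those of the dividing layer, summed to 2297 and 2204 FPKM in WT skin and 4856 and 5328 FPKM in KO skin, and 8 of 8 had both KO values above both WT values (35.3% of all genes tested), with a median log2 fold change of 1.10. Krt14 had 1293 and 1214 FPKM in WT skin and 2689 and 2735 FPKM in KO skin, and Krt5 had 764.1 and 765.4 against 1728 and 1664 FPKM. Macrophage markers summed to 1567 and 1463 FPKM in WT skin and 528.4 and 71.6 FPKM in KO skin, 8 of 10 with both KO values below both WT values (20.5% of all genes tested). Skeletal muscle markers, of a tissue that hardly divides, summed to 20805 and 19615 against 13020 and 12792 FPKM. Hair follicle markers summed to 17.5 and 5.17 FPKM in WT, 396.7 FPKM in KO replicate 1 and 32.5 FPKM in KO replicate 2, and 6 of the 18, Krt25 among them, were at 0 in at least 1 library. In 13 of the 18 both KO values were above both WT values. Sebocyte markers summed to 202.8 and 408.8 FPKM in WT skin and 360.0 and 1338 FPKM in KO skin. Mgst1 made up much of that sum and overlapped between groups, at 177.4 and 386.9 against 237.9 and 685.4 FPKM, while 4 of the 6, Elovl3 among them with 8.90 and 4.64 against 58.3 and 297.5 FPKM, had both KO values above both WT values. Fibroblast markers summed to 24.9 FPKM in KO replicate 2 and 180.1 to 422.0 FPKM in the others. In the same library endothelial markers stood at 7.22 against 60.1 to 85.0 FPKM, adipocyte markers at 208.1 against 1753 to 4798 FPKM and T cell markers at 3.68 against 10.2 to 13.3 FPKM. Wound keratins summed to 1182 and 466.8 FPKM in WT skin and 2073 and 872.5 FPKM in KO skin, and differentiated keratinocyte genes to 3081 and 1610 against 6538 and 781.3 FPKM. The part of each of these cell types in the cell cycle results was not tested.

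**Figure D3:**
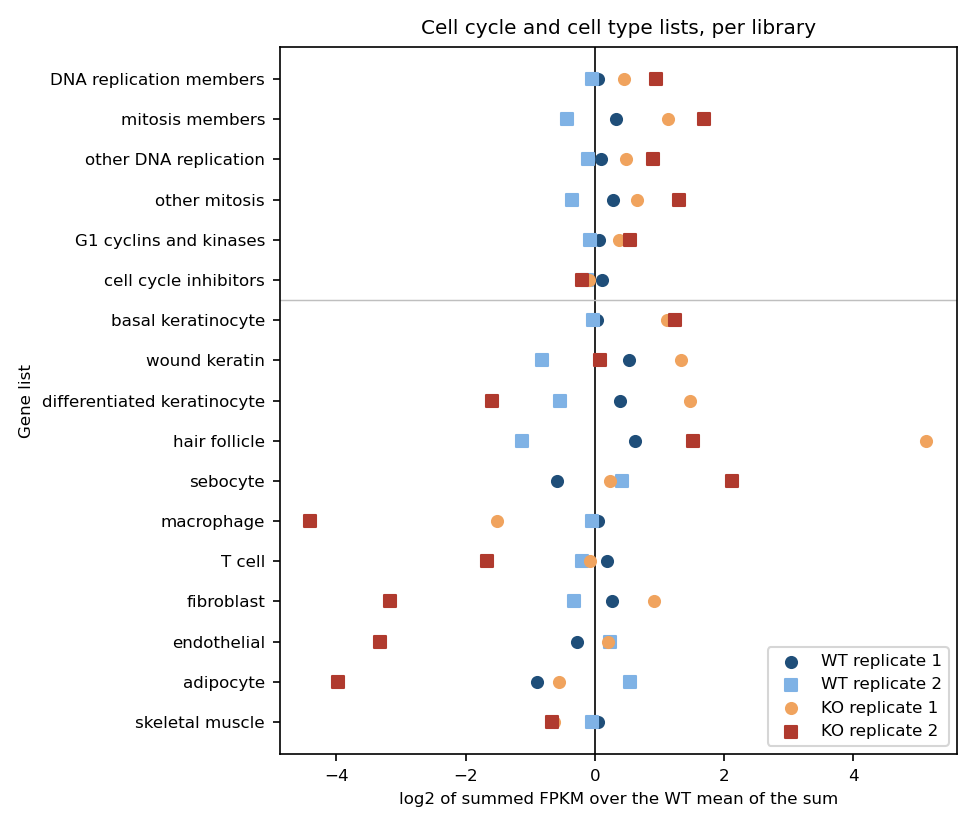
Summed FPKM of each gene list in each library, as log2 over the mean of the WT sums; cell cycle lists stand above the line and cell type markers below it. Both KO points lie above both WT points for all cell cycle lists except the inhibitors. The same holds for the basal keratinocyte and hair follicle lists. KO replicate 2 is far below the rest for macrophage, fibroblast, endothelial and adipocyte markers.

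Set against the basal keratinocyte genes, the cell cycle genes did not stand above WT in both KO libraries. Per 1000 FPKM of basal keratinocyte genes, the 40 genes stood at 96.3 and 78.7 FPKM in WT skin and 68.7 and 90.1 FPKM in KO skin. The replication genes stood at 54.1 and 52.8 FPKM in WT skin and lower, at 33.9 and 43.4 FPKM, in KO libraries. For the mitosis genes the groups overlapped, at 42.2 and 25.8 FPKM in WT skin and 34.7 and 46.7 FPKM in KO skin. These are ratios of sums, in which the most abundant genes weigh most. Among the replication genes that was Pcna, and among the basal genes Krt14 and Krt5. With each library scaled by these basal genes, a setting chosen after the data were seen, the median log2 fold change was 0.10 over all tested cell cycle genes, 0.27 over the mitosis genes and -0.29 over the replication genes, and groups did not overlap with KO above WT in 6 of 39 genes in place of 38, against 3.49% of all genes tested on that scale. That scaling divides every gene of a library by the same factor: all genes tested had a median of -0.87 on it, in place of 0.11, and the medians of the cell cycle genes lay above that of all genes on both scales.

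**Figure D4:**
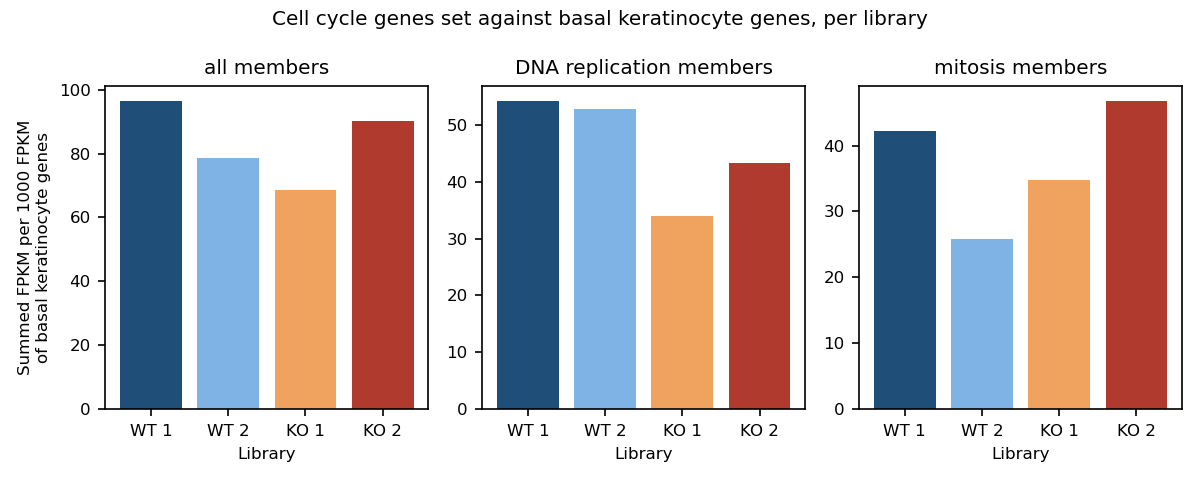
Summed FPKM of all 40 genes, the 14 replication genes and the 26 mitosis genes per 1000 FPKM of basal keratinocyte genes, 1 bar per library. The replication genes are lower in both KO libraries than in both WT libraries, and for the mitosis genes and the whole list the groups overlap.

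How firmly single genes can be read also depends on their loci. Of the 40 genes, 11 have a near-identical copy elsewhere in mm9 (at least 90% identity over at least 30% of the transcript), so their values are uncertain: Mcm4, Mcm7, Pcna, Rrm2, Tyms, Tk1, Ccnb1, Plk1, Cdc20, Ndc80 and Kif11. Ccnb1 has 6 such copies, with up to 99.2% identity. Whether the counting used strand is not stated. In 10 genes, annotated exons overlap a gene on the other strand: Ccne2, Mcm7, Tyms, Tk1, Ccna2, Cdca8, Cdc20, Ube2c, Kif20a and Nusap1. The other 23 genes have neither, and 23 of these 23 had both KO values above both WT values, against 35.3% of all genes tested.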

How the data were processed

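RNA was measured in 2 libraries of WT and 2 of GSDMD KO skin. The labels number them but do not say that each came from its own mouse, so p-values measure the spread between libraries, which may be technical. The submitters' processing notes name mm9, HISAT2 2.0.1 and StringTie 2.0.6. The table that the authors deposited is named as counts but holds FPKM, since 99.993% of the values above 0 are not whole, so a count model was not used. How the FPKM were made is not given in the sources used here.

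The 13027 genes that reached 1 FPKM in 2 or more libraries entered the fit as log2(FPKM + 1), KO minus WT, in limma 3.58.1 (R 4.3.3) with a mean-variance trend. The adjustment was that of Benjamini-Hochberg over all tested genes, and a gene was called at an adjusted p under 0.05 and a log2 fold change beyond 1. Fold changes on this scale understate low genes. The fit was also run on simulated data, the outcome of which is not reported here. Depth was estimated from the smallest steps between FPKM values of 2710 genes and is approximate. Positions are from the table, with 1 added to the start. Copies were sought with minimap2 2.31-r1302.

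The genes and all lists were chosen with earlier results of these data known. The genes named are the 40, Gsdmd, the 3 most abundant of each other cell cycle list and, of marker lists, at most their 2 most abundant. Tnnc2, which overlaps Ube2c, and Cdkn1c, Cdkn2a and Rbl1, chosen after their values were seen, are named besides. Alternatives were other pseudocounts, filters and scalings, a replicate block and leaving out each library.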

Additional observations from a re-analysis of the deposited data

How the results depend on the processing

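The direction of the tested genes was kept under most settings: with pseudocounts of 0.1 and 0.5, no filter, 1 FPKM in all libraries, TPM, no trend, median-ratio factors and upper-quartile scaling, all had log2 fold changes above 0 and 0 were called by limma. Scaling by basal keratinocyte genes, added after the data were seen, called 3859 genes and 0 of the list, and left 0 of 17 past the unadjusted rule and 6 genes without overlap. The median was then 0.10 over the list, 0.27 over the mitosis genes and -0.29 over the replication genes. That scaling took the median of all tested genes from 0.11 to -0.87, and with this shift log2 fold changes stood at -0.51 for Ccne1, -0.028 for Ccne2, -0.47 for E2f1, -0.49 for Mcm2, -0.43 for Mcm3, -0.029 for Mcm4, -0.089 for Mcm5, -0.18 for Mcm6, -0.47 for Mcm7, -0.73 for Pcna, -0.41 for Rrm1, -0.20 for Aurka, -0.0031 for Plk1 and -0.29 for Cdc20. TPM put 26 genes past the unadjusted rule, and a pseudocount of 0.1 gave a mitosis median of 1.45. With the unadjusted threshold as the rule, 1341 genes and 17 of the list were called.

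Leaving out 1 library in turn gave 0 to 2058 genes called and 0 to 19 of the list called. Both highest values came without KO replicate 1 (28 of the list past the unadjusted rule). Without KO replicate 2, 43 genes, 0 of the list, were called and 6 of the list passed the unadjusted rule. It was passed by 1 gene without WT replicate 2 and by 16 without WT replicate 1, so the range was 1 to 28. The lone library of a group is there assumed to vary like the other group. The list's median ranged from 0.73 to 1.20, that of the replication genes from 0.44 to 0.90 and that of the mitosis genes from 0.79 to 1.33. The log2 fold change of Ccne2 ranged from -0.023 without WT replicate 2 to 0.89 without WT replicate 1.

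Deviations of libraries with the same replicate number from their group means correlated at -0.20 over the tested genes. With 2 libraries a group this value cannot show whether they are pairs, and the labels do not say. With the replicate number as a block the list's median stayed at 0.96, that of the replication genes at 0.62 and that of the mitosis genes at 1.03, and 0 genes were called, with 17 of the list past the unadjusted rule. With the numbers crossed, the counts were also 0 and 17. The depth limits Ccne2, Bub1, Ndc80 and Nusap1 most, which hold the 6 values under 30 estimated fragments.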
